A study of Homo sapiens with 24 samples.

Results

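TR4 and BCL11A were compared through one epitope that both proteins carried, with the same MYC antibody, in the 3 MYC libraries of clone T and the 3 MYC libraries of clone B. Across the 24 libraries of the series, peaks that overlapped by 1 base or more were joined into 79570 regions, and the 7349 regions with a peak in an IgG library were left out. Of the 72221 regions left, 44155 had a MYC peak in clone T or B. A region was counted for a protein where at least 2 of its 3 libraries had a peak. The comparison described here covers 20379 regions: 7458 shared by both proteins, 1422 of TR4 alone (no MYC peak in any library of clone B) and 11499 of BCL11A alone (none in clone T).

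HUDEP-2 is an established line of human erythroid progenitors, and its genome was edited to add the epitopes. Clone T carries TR4, the product of NR2C2, with FLAG and MYC epitopes at its C-terminus. In clone B it is BCL11A that has HA and MYC epitopes, and in clone TB both proteins are tagged. All 3 clones were expanded in one medium with SCF, EPO, dexamethasone and doxycycline and received no further treatment. Each line is 1 clone, so protein and clone cannot be told apart in the MYC libraries, whereas the TR4 and HA antibodies were also used side by side in clone TB. Whether the 3 libraries of a group are separate cultures is not in the labels. The p-values therefore measure only the spread between libraries, which may be technical. In every group replicate 3 had the fewest peaks: the MYC lists held 13205, 14263 and 4621 peaks in clone T and 29363, 31432 and 13429 in clone B.

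CUT&RUN tethers a nuclease to the protein of interest through an antibody and sequences the DNA cut loose beside it. TR4 is a nuclear receptor that binds DNA as a dimer, often with TR2 (NR2C1), at direct repeats of the nuclear receptor motif AGGTCA, and is known in erythroid cells as part of a complex at the globin genes. BCL11A is a zinc finger repressor of the fetal γ-globin genes that recognises TGACCA and recruits corepressors such as NuRD. Fold enrichment below is the authors' own value for each peak, used only to rank and describe peaks within a list. Folds of clones T and B stand side by side below, but their scales differ. The highest-ranked region of TR4 alone had folds of 284, 315 and 127, and that of BCL11A alone 123, 123 and 45.5. A higher fold in one clone is therefore not read as a preference.

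Promoter sequences show what the 3 classes look like at single genes. All are upstream bases on the gene's own strand, 5′ to 3′, from the RefSeq promoter table (GRCh38.p14), and positions are counted from the start site. Capitals mark matches, on either strand, to the nuclear receptor motif AGGTCA, the short direct-repeat core GGTCANAGG that overlaps it, the BCL11A motif TGACCA, an ETS motif CCGGAAG, the NFY box CCAAT or the SP1 box GGGCGG. A match describes letters and is not a bound site.

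The TR4-alone promoters shown are those of RPL34, a ribosomal protein of the large subunit (chr4:108620456-108620575, plus strand), CSNK1G1, a casein kinase (chr15:64356174-64356293, minus strand), RPS6KC1, of the ribosomal S6 kinase family (chr1:213051121-213051240, plus strand), NUDT5, an ADP-ribose pyrophosphatase (chr10:12195892-12196011, minus strand), and THOC2, of the mRNA export complex TREX (chrX:123733053-123733172, minus strand). RPL34, CSNK1G1 and RPS6KC1 came by rank of fold. NUDT5 and THOC2 were picked after their values were seen, because the core lay beside the TR4 summit, so they do not stand for the class.

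RPL34: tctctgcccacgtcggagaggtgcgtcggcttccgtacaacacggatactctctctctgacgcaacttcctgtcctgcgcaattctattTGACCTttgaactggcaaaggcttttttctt
CSNK1G1: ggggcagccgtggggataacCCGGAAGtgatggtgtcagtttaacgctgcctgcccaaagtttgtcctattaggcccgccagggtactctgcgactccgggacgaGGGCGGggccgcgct
RPS6KC1: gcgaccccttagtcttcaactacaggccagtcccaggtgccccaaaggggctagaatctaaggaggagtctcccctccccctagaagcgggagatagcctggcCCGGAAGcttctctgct
NUDT5: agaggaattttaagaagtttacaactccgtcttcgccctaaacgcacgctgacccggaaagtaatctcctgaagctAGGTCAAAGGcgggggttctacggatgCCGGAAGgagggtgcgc
THOC2: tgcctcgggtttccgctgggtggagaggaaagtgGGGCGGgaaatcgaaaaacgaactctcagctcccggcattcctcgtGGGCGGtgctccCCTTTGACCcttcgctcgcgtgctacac

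In RPL34 the TR4 summit, the position of highest signal in the peak, lay at −50 (median of the libraries) and the motif at −31. The summit lay at −7 in CSNK1G1 and at −4 in RPS6KC1, and neither window of 300 bases held AGGTCA or the core, while both held CCGGAAG, at −100 and at −17. Of the 170 promoters with a TR4-alone and no BCL11A region, 19.4% held AGGTCA and 2.94% the core. In NUDT5 the core lay at −43 and in THOC2 at −28, with summits at −32 and −26. The folds at NUDT5 were 87.5, 83.4 and 30.8 in clone T, with a peak in 6 of 6 TR4-antibody libraries and 0 of 6 HA libraries. At THOC2 they were 79.4, 114 and 33.1, with 6 and 1.

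The shared promoters shown are those of CCDC51, a subunit of a mitochondrial potassium channel (chr3:48440120-48440239, minus strand), C1orf174 (chr1:3900337-3900456, minus strand), ANAPC15, of the anaphase-promoting complex (chr11:72112325-72112444, minus strand), and SHC1, an adaptor of receptor tyrosine kinases (chr1:154974377-154974496, minus strand). CCDC51 was picked after the values were seen because it holds the full direct repeat, and C1orf174 because it holds the short core near the TR4 summit, while ANAPC15 and SHC1 came by rank of fold. PAK4, which came by the same rank and is not printed, held neither AGGTCA nor TGACCA.

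CCDC51: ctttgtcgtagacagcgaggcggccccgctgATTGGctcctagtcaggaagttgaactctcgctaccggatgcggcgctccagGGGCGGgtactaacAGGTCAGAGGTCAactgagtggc
C1orf174: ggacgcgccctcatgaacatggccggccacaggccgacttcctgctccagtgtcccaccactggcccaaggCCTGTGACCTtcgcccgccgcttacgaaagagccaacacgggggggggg
ANAPC15: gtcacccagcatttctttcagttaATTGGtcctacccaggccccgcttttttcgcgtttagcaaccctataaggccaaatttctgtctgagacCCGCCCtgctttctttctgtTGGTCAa
SHC1: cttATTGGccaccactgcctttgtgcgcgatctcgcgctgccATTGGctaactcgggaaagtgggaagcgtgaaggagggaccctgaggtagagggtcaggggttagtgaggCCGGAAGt

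At CCDC51 both summits lay at −39, beside a repeat at −23, and the folds were 228, 223 and 84.9 in clone T against 12.4, 16.3 and 11.5 in clone B. The full repeat AGGTCANAGGTCA occurred in 4 of 20671 promoter windows: those of CCDC51 and its divergent neighbour TMA7, which share one region, that of ACBD3, which had a shared and a TR4-alone region, and that of RAP1GAP2, which had none. At C1orf174 the BCL11A summit lay at −142, and the TR4 summit at −109 beside the core at −113, as it was picked for. ANAPC15 had its TR4 summit at −210 and its BCL11A summit at −110, near the TGACCA match at −96. At SHC1 the summits lay at −30 for TR4 and 581 bases after the start for BCL11A, so one merged region there held summits of the 2 proteins far apart.

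The BCL11A-alone promoters shown are those of GP1BB, a platelet glycoprotein (chr22:19723381-19723500, plus strand), and HES6, a transcriptional cofactor (chr2:238240113-238240232, minus strand), both by rank of fold. EEF2K, which came by the same rank and is not printed, held neither AGGTCA nor TGACCA either.

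GP1BB: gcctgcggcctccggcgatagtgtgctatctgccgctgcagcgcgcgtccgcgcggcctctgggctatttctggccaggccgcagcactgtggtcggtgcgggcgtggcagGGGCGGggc
HES6: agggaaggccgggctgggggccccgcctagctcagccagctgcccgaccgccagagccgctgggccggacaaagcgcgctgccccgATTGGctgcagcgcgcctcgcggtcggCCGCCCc

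The BCL11A summit lay at −98 in GP1BB and at −134 in HES6, and neither promoter window of 300 bases held AGGTCA or TGACCA. The folds were 55.8, 59.4 and 28.2 at GP1BB, with 6 of 6 HA and 0 of 6 TR4-antibody libraries. At HES6 they were 75, 57 and 22.7, with 6 and 1.

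How the classes divide the genome depended on the length of the lists. Of the 9608 TR4 regions 77.6% were shared, and of the 21798 BCL11A regions 34.2%. When each library was held to its 4621 strongest peaks, the length of the shortest list, 1519 regions were shared, 37.1% of the TR4 and 36% of the BCL11A regions, and 2143 were of TR4 alone and 2192 of BCL11A alone. Regions with a peak in all 3 libraries of one protein and none of the other numbered 290 for TR4 and 4013 for BCL11A, which is 0.657% and 9.09% of the 44155 regions with a MYC peak. Another 728 TR4 regions had 1 MYC peak in clone B and 2841 BCL11A regions had 1 in clone T, and these belong to none of the classes. Without MYC replicate 1 or 2 of clone T, when both others had to hold the peak, 3195 or 3174 regions were shared and 316 or 300 were of TR4 alone, and without replicate 1 or 2 of clone B 4477 or 4168 were of BCL11A alone.

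Members with 2 of 3 libraries carried weaker peaks than those with 3. In replicate 1 of clone T, the median fold was 18.1 in the TR4-alone regions with 3 libraries and 8.64 in the 1132 with 2. Just outside the rule, at the 3796 regions with a peak in 1 library, it was 5.02. For BCL11A the same medians in replicate 1 of clone B were 11.6, 7.78 and 5.7.

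Libraries with other antibodies, which the rule did not use, followed the classes. Of the TR4-alone regions, the TR4 antibody had a peak at 50.8, 79.7 and 19% in clone T and at 46.6, 46.6 and 23.6% in clone TB. The HA antibody had one at 7.81, 9.42 and 0.281% in clone B and at 9.49, 11.2 and 3.09% in clone TB. Every TR4-antibody library thus lay above every HA library, 44.4 ± 21.8 against 6.88 ± 4.26% (SD, n = 6 each; exact permutation test, two-sided, adjusted p = 0.00325 over the 3 classes). The BCL11A-alone regions gave the reverse without overlap, 57.9 ± 20.1% with HA against 6.24 ± 4.76% for TR4 (SD, n = 6 libraries a side; exact permutation test, adjusted p = 0.00325). Within clone TB alone, where clone does not differ, the shares were 38.9 ± 13.3 and 7.92 ± 4.27% for TR4-alone regions and 7.48 ± 4.11 and 52.9 ± 16.7% for BCL11A-alone regions (SD over 3 libraries each). The exact permutation test gave p = 0.1 for both, the smallest that 3 against 3 allow.

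Shared regions were found by both antibodies. The TR4 antibody had a peak at 72.4 ± 16.7% of them and HA at 84.1 ± 13.7% (SD, n = 6 each), ranges of 48 to 92.9% and 66.2 to 96.7% that overlap, and the difference did not pass (exact permutation test, adjusted p = 0.206). With same-numbered libraries taken as blocks it passed (exact sign-flip test, adjusted p = 0.0312), though these were not shown to be pairs at every number. Its sign turned with list length, to 7.52 percentage points higher with the TR4 antibody when the lists were held to one length (exact permutation test, adjusted p = 0.0476). It also hung on single MYC libraries: without replicate 1 or 2 of clone T it was 1.43 or 1.53 points, and without replicate 1 or 2 of clone B −15.8 or −16 points, which passed (exact permutation test, adjusted p = 0.039 and 0.0325). In clone TB, 69.2% of the shared regions were regions of both antibodies. At 3.22% no TR4-antibody library, and at 0.55% no HA library, had a peak. The part of the cells' own MYC protein in the MYC peaks was not tested beyond these shares and the E-box CACGTG, which 11.5% of promoters with a MYC peak held in both clones (SD 0.266 and 0.285, n = 3 each). It was in 11.3 ± 0.348% of those with a TR4-antibody peak and 11.6 ± 0.168% of those with an HA peak (SD, n = 6 each), in 8.31% of all promoter windows and in 6.35% of windows with no region of either protein.

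**Figure D1:**
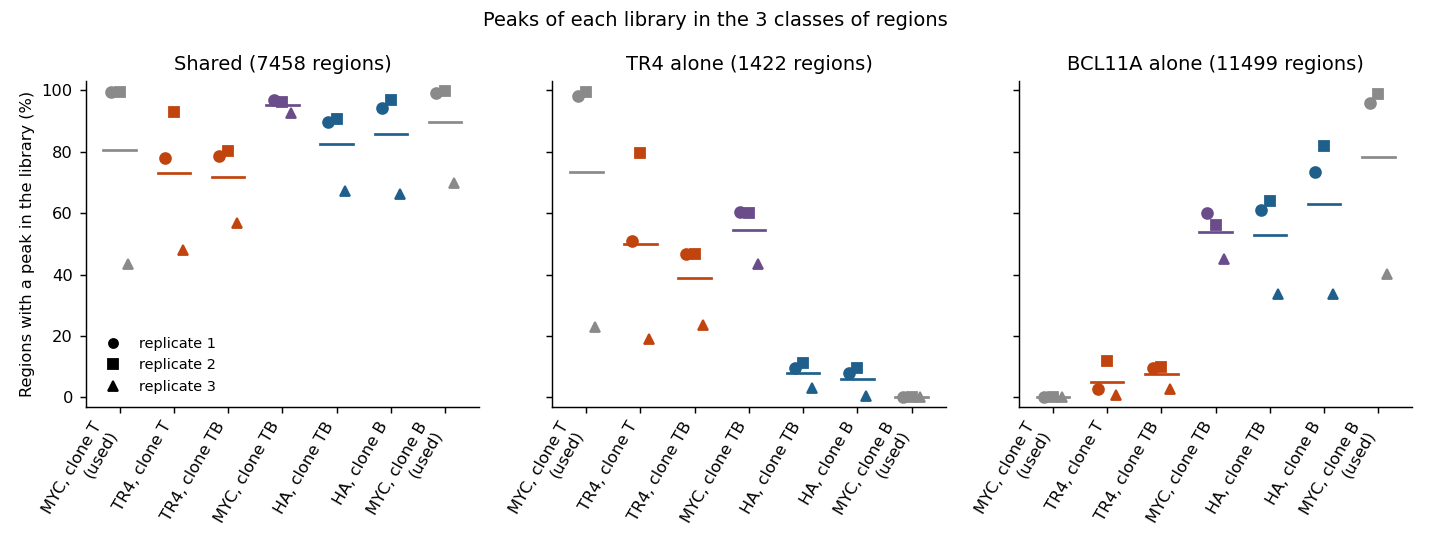
Share of the regions of each class with a peak (%), by group of libraries; each point is 1 library, its shape gives the replicate, and the MYC groups of T and B defined the classes. At TR4-alone regions the 6 TR4-antibody libraries lie between 19 and 79.7% and the 6 HA libraries between 0.281 and 11.2%; at BCL11A-alone regions the order is reversed.

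Region by region, 18601 regions had a peak in 4 or more of the 12 TR4-antibody and HA libraries and were tested with Fisher's exact test on the number of libraries. TR4 was preferred at 112 (0.602%) and BCL11A at 1545 (8.31%) after Benjamini-Hochberg adjustment, each with a peak in 6 libraries of one antibody and 0 of the other (adjusted p = 0.0243 by Fisher's exact test). Of the 563 TR4-alone regions that could be tested, 84 were TR4-preferred and 0 BCL11A-preferred (217 and 0 at an unadjusted p under 0.05). Of the 6391 BCL11A-alone regions, 1233 were BCL11A-preferred and 0 TR4-preferred (2945 and 3 unadjusted). The filter of 4 libraries counts peaks in the same 12 libraries as the test. TR4-alone regions had more TR4-antibody than HA peaks there (44.4 against 6.88%), and BCL11A-alone regions fewer (6.24 against 57.9%). These counts therefore describe the classes and are no separate support for them. Among 7253 shared regions the counts were 3 and 68. At equal list lengths 1227 and 1043 regions were preferred, and when every region was tested none passed (321 and 3976 unadjusted). Single libraries also set the counts, since the TR4-preferred regions numbered 200 without TR4-antibody replicate 3 of clone T and 324 or 337, beside 6211 or 6017 BCL11A-preferred ones, without HA replicate 3 of clone B or TB.

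Shared regions lay at start sites, and regions of one protein alone were spread more widely. Within 1 kb of a start site of a protein-coding gene lay 66.2% of the shared regions (4815 of 7275 on the primary chromosomes), 34.3% of the TR4-alone regions (453 of 1322) and 35.3% of the BCL11A-alone regions (3970 of 11237). Inside a gene record but away from a start lay 17.8, 37.6 and 36%. More than 10 kb from any start lay 18.7% of the shared, 40.8% of the TR4-alone and 40.7% of the BCL11A-alone regions. The regions of one protein were also narrower, with median widths of 174 bases for TR4 alone and 224 for BCL11A alone against 361 for shared regions, and wider regions can overlap more.

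With lists of one length, 75.1% of the shared, 60.1% of the TR4-alone and 51.4% of the BCL11A-alone regions lay at start sites, so the similar shares of the 2 proteins in the deposited lists did not hold. Counted by peak, 53.7, 53.5 and 61.3% of the MYC peaks of clone T and 42.1, 42.5 and 46.6% of those of clone B lay at start sites, against 1.97 to 3.83% in the IgG libraries. All 3 libraries of clone T lay above those of clone B, by 12.4 percentage points on average (two-sided exact permutation test, p = 0.1, the lowest 3 against 3 can give). It was 4.61 points at equal list lengths (exact permutation test, p = 0.3). With the TR4 antibody against HA the shares were 61.1 ± 2.87 and 43.7 ± 2.33% (SD, n = 6 libraries a side; p = 0.00216 by the exact permutation test, its smallest value).

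**Figure D2:**
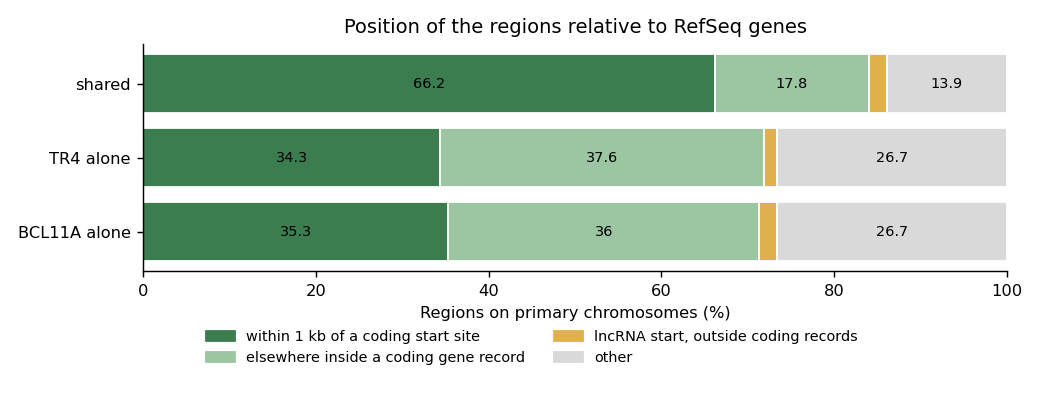
Location of the regions of each class on the primary chromosomes (% of the class), as stacked bars: within 1 kb of a start site of a protein-coding gene, elsewhere in such a gene record, at a lncRNA start, or other. Shared regions lay at start sites in 66.2% of cases against 34.3 and 35.3% for TR4 alone and BCL11A alone.

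TR4-alone regions stood nearer to BCL11A regions than BCL11A-alone regions did to TR4 regions. Of the TR4-alone regions 25.9% (343) lay within 1 kb of a BCL11A region and 51.6% (682) over 10 kb from any. Their median gap was 10936 bases. Of the BCL11A-alone regions 9.09% (1021) lay within 1 kb of a TR4 region and 74.6% (8383) over 10 kb from any. Their median gap was 41498 bases. BCL11A regions are more numerous, and this difference was not tested. Chromosome 19 stood apart, with 1064 shared, 119 TR4-alone and 716 BCL11A-alone regions, so 56% were shared there, against 22.4 to 39.6% on the other chromosomes. Off the primary chromosomes lay 7.03% of the TR4-alone, 2.45% of the shared and 2.28% of the BCL11A-alone regions.

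The genes of the proteins themselves carried regions. At the NR2C2 start the region 3:14947090-14947713 had folds of 321, 365 and 161 in clone T and of 12, 14.9 and 9.8 in clone B. The next region, 3:14947833-14948702, had 39.5, 68.6 and 34.6 in clone T and 47.5, 25.9 and 23.9 in clone B. At NR2C1, which encodes the TR4 partner TR2, the TR4-alone region 12:95072503-95073183 had folds of 117, 138 and 60.2, with a peak in 6 of 6 TR4-antibody and 0 of 6 HA libraries. A shared region, 12:95073265-95073838, began next to the one of TR4 alone, with folds of 192, 87.8 and 40.2 in clone T and 11.3, 16.8 and 4.18 in clone B.

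BCL11A had a shared region at its start, 2:60553538-60553787, with folds of 6.48 and 7.83 in replicates 1 and 2 of clone T and of 16.8, 10.6 and 7.78 in clone B. The gene record held 3 further regions of BCL11A alone. ZBTB7A, a second repressor of γ-globin, had 3 shared regions and 1 of BCL11A alone within 1 kb of a start, and a further BCL11A-alone and 1 TR4-alone region inside the gene. The strongest of the shared ones by rank, 19:4065788-4066183, had folds of 17.5, 19.1 and 11.3 in clone T and 32.3, 40.2 and 11.5 in clone B.

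Of the 10 strongest shared regions 7 lay at start sites, and chromosome 19 held most of them. By mean rank of the fold the first was at C19orf67, 19:14080989-14081725, with 330, 348 and 117 in clone T and 68.6, 81.2 and 32 in clone B. PAK4, a kinase, had 160, 138 and 85.5 and then 58.1, 59.1 and 28.4, and the mitochondrial ribosomal protein gene MRPL4 had 167, 179 and 47.3 and then 56, 68.2 and 21.6. With SGTA, HSD11B1L and ARID3A these make 6 of the first 10 that lay on chromosome 19; the other 4 were at ZHX1, SHC1, ANAPC15 and TMEM253 with ZNF219. Each of the 10 had a peak in all 21 target libraries.

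The strongest TR4-alone regions lay at start sites, inside genes and between genes. The region with the highest rank, 20:20052142-20052949, overlapped the records of CFAP61, a cilium protein, and CRNKL1, a splicing factor, with folds of 284, 315 and 127. RPL34 followed with 184, 196 and 88.1, and then a region in FGF14, 13:102394428-102394671, with 173, 188 and 77. At CCDC77 and the histone demethylase gene KDM5A, 12:389445-389791, the folds were 154, 187 and 54.4. The others of the first 10 lay at or near NR2C1, SCCPDH, CSNK1G1, CD99, PCSK6 and RPS6KC1. Each of the 10 had a peak in 6 of 6 TR4-antibody libraries, in 3 of 3 MYC libraries of clone TB and in 0 to 2 of 6 HA libraries.

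The strongest BCL11A-alone regions were mostly away from starts. The first, 16:85381975-85382492, lay inside the record of GSE1, a corepressor-associated protein, with folds of 123, 123 and 45.5 in clone B. Next came a region in EVL near DEGS2, 14:100142114-100142941, with 93.9, 83.1 and 40.6, and one at CYB561, 17:63431731-63432406, with 101, 74.5 and 40.7. Only TMEM19 and BCAT2, the mitochondrial enzyme of branched-chain amino acid breakdown, had theirs at a start site among the first 10. The others lay in or near MGAT3 (2 regions), IBA57, ANKRD33B and BLM. Each of the 10 had a peak in 6 of 6 HA libraries and in 0 to 3 of 6 TR4-antibody libraries.

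Some genes collected many regions of one class. GSE1 held 34 BCL11A-alone and 11 shared regions and 0 of TR4 alone. ZFPM1, which encodes the GATA1 cofactor FOG1, held 20 BCL11A-alone, 6 shared and 1 TR4-alone, the corepressor gene BCOR 13 of BCL11A alone and no other, and NFIX, a repressor of γ-globin, 12 of BCL11A alone and 2 shared. For TR4 alone the highest number was 5, in NFIA, beside 4 of BCL11A alone and 2 shared, followed by 4 in the clock gene PER3. KDM6B, a histone demethylase, held 8 shared and 1 TR4-alone. Records differ in length (506689 bases for GSE1 and 20580 for KDM6B), and the numbers were not scaled to it. Of the 858 coding gene records with a TR4-alone region, 553 also held a shared or BCL11A-alone region.

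In shared regions the 2 proteins ranked the regions differently. Across the regions where both libraries had a peak, the fold of 2 MYC libraries of clone T correlated at Spearman's rho 0.796 to 0.828 (3174 to 7369 regions), and of 2 MYC libraries of clone B at 0.685 to 0.829 (5146 to 7391 regions). Between a library of clone T and one of clone B it was 0.00172 to 0.145 (2510 to 7414 regions). Libraries of a pair share the regions, and these values are a description across regions. The order of the regions by TR4 fold thus had little in common with their order by BCL11A fold. ZNF446, among the higher TR4 values, had 274, 277 and 81.4 in clone T and 19.9 and 19.7 in replicates 1 and 2 of clone B. The hypoxia factor partner ARNT had 28.1, 52.3 and 23.6 in clone T and 79, 82.8 and 34.3 in clone B.

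The summits lay close together, but not at the same bases. The gap between the median summits of the 2 proteins was 26.5 bases at the median shared region, within 50 bases at 69.1%, within 100 at 87.8% and over 200 at 3.57%. Between 2 libraries of different proteins the median distance averaged 35.4 bases over the 9 pairs (30 to 42), against 19.7 within TR4 (19 to 20) and 23.3 within BCL11A (20 to 25). No pair between proteins lay as close as any pair within one, and the means differed by 13.9 bases (exact permutation test over libraries, two-sided, p = 0.1, the smallest possible).

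**Figure D3:**
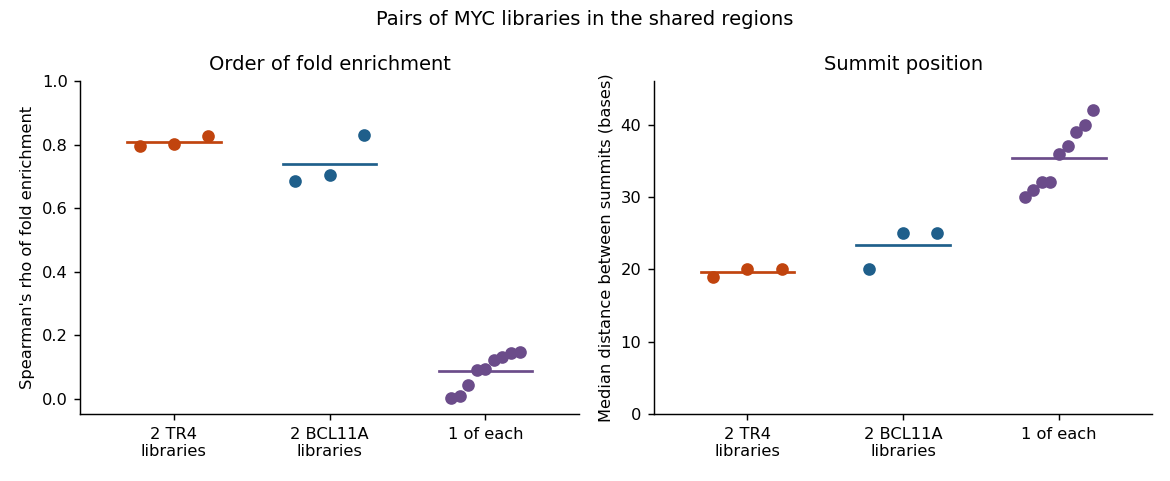
Pairs of MYC libraries within the shared regions: rank correlation of the fold (Spearman's rho) and median distance between summits (bases), each point 1 pair within TR4, within BCL11A or between the proteins. Pairs between proteins reach a rho of at most 0.145 and lie 30 to 42 bases apart, against 19 to 25 bases within a protein.

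TR4 summits lay on the nuclear receptor motif more often than BCL11A summits did. Taking promoter windows (250 bases before to 50 after a start) with the motif AGGTCA and a summit, the summit lay within 30 bases of the motif in 39.2, 38.6 and 43.5% of cases in the MYC libraries of clone T and in 26.2, 21.9 and 21% in those of clone B. The 3 libraries of each clone did not overlap (exact permutation test, p = 0.1, the smallest possible). The share was 39.1 ± 2.92% over the TR4-antibody libraries and 24 ± 1.06% over the HA libraries (SD, n = 6 a side). The gap of 15.1 percentage points passed (exact permutation test, adjusted p = 0.00433 over 10 motifs). In clone TB, which holds both proteins, the values were 35.7, 36.3 and 41.3% with the TR4 antibody and 25.1, 23.5 and 23.1% with HA.

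The short direct-repeat core gave the widest gap among the motifs. Near GGTCANAGG lay 57.8, 51.7 and 59.1% of the clone T MYC summits in windows that hold it (66 to 87 summits a library) and 32.6, 33.7 and 33.9% of those of clone B (56 to 95). With the TR4 antibody and HA it was 58.5 ± 4.78 and 28.2 ± 5.69% (SD, n = 6 each; exact permutation test, adjusted p = 0.00433). The BCL11A motif TGACCA went the other way by less in the deposited lists, 27.7 ± 1.36% of HA summits against 22.9 ± 1.41% of TR4-antibody summits (SD, n = 6 libraries a side; exact permutation test, adjusted p = 0.00433), and 16.9, 20.2 and 21.9% against 31, 27.8 and 28.4% in the MYC libraries. With lists of one length its difference between antibodies was −9.4 percentage points, against −4.78 in the deposited lists (exact permutation test, adjusted p = 0.00361). Of the other motifs, the NFY box CCAAT also lay nearer HA summits, at 46.9 ± 1.17 against 43.8 ± 1.88% (SD, n = 6 each; exact permutation test, adjusted p = 0.00433), as did the GATA motif AGATAA, at 16.5 ± 2.4 against 12.8 ± 2.59% (SD, n = 6 each; exact permutation test, adjusted p = 0.0469).

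Inside shared regions alone, where both proteins were present, the first 3 motifs kept their direction. There the differences were 14.7 percentage points for AGGTCA, 30.6 for the core and −4.63 for TGACCA (TR4 antibody minus HA; exact permutation test, adjusted p = 0.00541 for each). The ETS motif CCGGAAG lay near 37 ± 1.24% of TR4-antibody and 29.9 ± 0.79% of HA summits there (SD, n = 6 each; exact permutation test, adjusted p = 0.00541). Over all regions its difference was 6.56 points in the deposited lists and 12.3 with lists of one length. CCAAT differed by −4.01 points in shared regions (exact permutation test, adjusted p = 0.00866), and AGATAA did not pass there (−1.64 points; exact permutation test, adjusted p = 0.487). The E-box CACGTG, the motif of MYC, differed by −0.214 points (exact permutation test, adjusted p = 0.868).

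**Figure D4:**
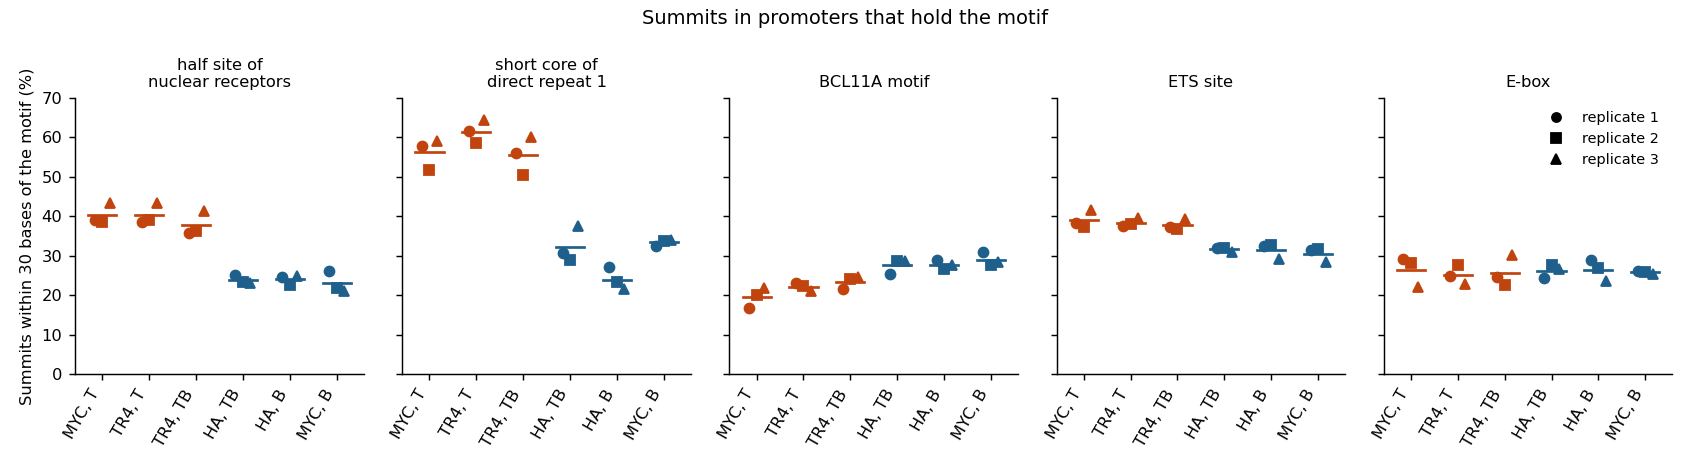
Share of peak summits within 30 bases of a motif (%), among promoter windows that hold the motif and a summit, one point per library. For AGGTCA the TR4-antibody libraries lie between 35.7 and 43.3% and the HA libraries between 22.6 and 25.1%; for TGACCA they lie between 21.2 and 24.7% and between 25.4 and 28.9%.

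Promoters bound by the 2 proteins also differed in which motifs they held. AGGTCA was found in 11.9% of all 20671 windows, in 11.8 ± 1.53% of those with a TR4-antibody peak and in 9.24 ± 0.2% of those with an HA peak (SD, n = 6 each; exact permutation test, adjusted p = 0.00397 over 11 motifs). For CCGGAAG, found in 12.5% of all windows, the shares were 27.9 ± 1.86 and 22.6 ± 0.239% (exact permutation test, SD, n = 6 each, adjusted p = 0.00397). With lists of one length these differences were 4.21 points for AGGTCA and 9.18 for CCGGAAG, against 2.51 and 5.31 in the deposited lists. TGACCA, found in 9.46% of all windows, did not differ by the test, with 8.32 ± 0.555 and 8.38 ± 0.5% (SD, n = 6 each; exact permutation test, adjusted p = 0.799), but at equal list lengths the difference was −1.42 points (exact permutation test, adjusted p = 0.00298).

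By class, AGGTCA was in 19.4% of the 170 promoters with a TR4-alone and no BCL11A region, 11% of the 4199 with a shared region and 6.34% of the 2272 with a BCL11A-alone and no TR4 region. CCGGAAG was in 37.6, 26.9 and 15.3%. CCAAT, in 34.9% of all windows, was in 24.7, 47.5 and 32.4%. TGACCA was in 5.88, 8.29 and 7.22%, each below the 9.46% of all windows. Windows with no region of either protein held AGGTCA in 13.4%, CCGGAAG in 5.9%, CCAAT in 31.1% and TGACCA in 10.4%. The median GC content by class was 62.3, 66 and 68.7%. It was 62.3% over all windows and 57.7% in those with no region, and its part in the motif shares was not tested.

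Genes with a shared region at a start site numbered 5046 of 20037 protein-coding genes (25.2%), 380 (1.9%) had a TR4 region and no BCL11A region, and 3917 (19.5%) had a BCL11A region and no TR4 region. With lists of one length these shares were 6.51, 7.48 and 7.27%, near balance between the proteins. The lists of genes below are therefore given at that length first, except in the paragraph on other lineages. They were not tested as lists, and each count is to be read beside these shares. Gene activity was not measured.

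At equal length, genes of energy metabolism more often had TR4 without BCL11A than the reverse. Of 37 subunits of respiratory complex I, 9 had a TR4 region and no BCL11A region at equal length (24.3%), 1 the reverse (2.7%, NDUFB11) and 4 a shared one. Of 40 subunits of complexes II to V, 14 (35%), 5 (12.5%) and 10 did. NDUFS6 had folds of 123, 135 and 47.6 in clone T against 13.8, 19.6 and 7.94 in clone B, and the ATP synthase subunit ATP5PF 110, 135 and 38.4 against 15.4, 28.5 and 12.5. SDHB, the iron-sulfur subunit of succinate dehydrogenase, had 58.1, 66.5 and 27.2 against 11.2, 21 and 10.1. These regions of NDUFS6, ATP5PF and SDHB were shared in the deposited lists, each with a peak in 6 of 6 HA libraries. ATP5F1D had a BCL11A-alone region (18.1, 23 and 14.4; 6 of 6 HA and 0 of 6 TR4-antibody libraries), though in neither kind of list did it count as a gene with BCL11A only. In the deposited lists most of these genes were shared: 18 of 37 and 30 of 40, with 1 and 5 of TR4 only (NDUFB8; ATP5MC3, ATP5MG, COX6C, SDHC and SDHD) and 10 and 4 of BCL11A only.

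Counts for protein synthesis and breakdown had the same direction at equal length. In the deposited lists BCL11A only was the larger count, as it was over all genes. At equal length, 19 of 88 cytosolic ribosomal protein genes had a TR4 region and no BCL11A region (21.6%) and 7 the reverse (7.95%), as did 17 and 9 of 77 mitochondrial ribosomal protein genes (22.1 and 11.7%). Proteasome genes gave 10 and 2 of 48, nucleolar ribosome biogenesis genes 6 and 1 of 31, and aminoacyl-tRNA synthetases 9 and 6 of 33. In the deposited lists, where 1.9% of all genes had TR4 only and 19.5% BCL11A only, the same counts were 8 and 25 for cytosolic ribosomal proteins, 5 and 22 for mitochondrial ones, 3 and 9 for the proteasome, 3 and 9 for nucleolar genes and 1 and 9 for the synthetases. As shares, TR4 only was 9.09, 6.49, 6.25, 9.68 and 3.03% in that order, each above 1.9%. BCL11A only was 28.4, 28.6, 18.8, 29 and 27.3%, above 19.5% in all but the proteasome. PSMD9, a proteasome chaperone, had folds of 118, 145 and 70.5 in clone T and 31.4, 33.7 and 11.5 in clone B. UTP4, of ribosome assembly, had a TR4-alone region (30.8, 58 and 20.1). RPS2 went against the list with a BCL11A-alone region (30.5, 32.4 and 17.5), though 4 of 6 TR4-antibody libraries also had a peak there. KARS1, lysyl-tRNA synthetase, had a TR4-alone region by the MYC libraries (84.9, 94.9 and 46.7) but a peak in 5 of 6 HA libraries.

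Erythroid transcription factors had the reverse. Of 24 erythroid transcription factors, 9 had a BCL11A region and no TR4 region at equal length (37.5%: BACH1, E2F4, FOXO3, GATA1, GATA2, KLF1, KLF13, RUNX1 and TAL1), 1 the reverse (4.17%: GFI1B) and 3 a shared one. GATA1, the master regulator of the lineage, had folds of 29.1, 26.1 and 23.1 in clone B, with 6 of 6 HA and 0 of 6 TR4-antibody libraries. GATA2 had 42.9, 36.1 and 19.6, and the stress-response factor FOXO3 had 38.8, 31.4 and 22.6. For TAL1 the folds were 33, 19.9 and 15, and for KLF1, named after its values were seen, 17.2, 19.1 and 7.6. In the deposited lists 12 were shared, 7 had BCL11A only and 1 (SOX6) TR4 only. BACH1, E2F4, KLF1 and RUNX1 were not among these 7.

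Cell cycle and blood group genes also had BCL11A only more often than TR4 only. Of 27 cell cycle genes, 8 had a BCL11A region and no TR4 region at equal length (29.6%, CCND3, CCNE1, CDKN1B, E2F2, E2F4, E2F8, MXI1 and MYC), 0 the reverse and 6 a shared one. The deposited lists gave 13 of 27 shared, 11 BCL11A only and 1 TR4 only (RBL1). CCND3 and MYC, named after their values were seen, had shared regions there. Their clone T folds in replicates 1 and 2 were 7.13 and 11.4 for CCND3 and 6.66 and 7.41 for MYC. The S-phase factor gene E2F2 had BCL11A folds of 19.3 and 28.6 in replicates 1 and 2. Blood group genes gave 5 (22.7%) and 0 of 22. Red cell membrane skeleton genes gave 2 (9.52%) and 0 of 21, near the 7.27% of all genes. ACKR1, the Duffy antigen, had 25.4, 26 and 11.2, and ABCB6 24, 21.3 and 15.9. In the deposited lists 13 of 22 blood group genes (59.1%) and 11 of 21 membrane skeleton genes (52.4%) had BCL11A only, against 19.5% of all genes. Of 26 genes of erythropoietin and KIT signalling, 5 had BCL11A only and 3 TR4 only at equal length. The deposited lists gave 13 shared, 9 BCL11A only and 1 TR4 only (PTPN6). The kinase genes JAK2 (18.5, 19.6 and 10.7) and LYN (47, 49.3 and 20.6) had BCL11A-alone regions. JAK2 did not count as a gene with BCL11A only in the deposited lists. The receptor gene EPOR had a shared region (16.2, 14.6 and 6.78 in clone T and 41.1, 62.2 and 25.9 in clone B).

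Iron genes of TR4 only and of BCL11A only were mostly known for different steps when the lists had one length. At equal length 6 of 22 had TR4 only, and they were BOLA3, HSCB, ISCA1, ISCU, NCOA4 and NFS1, of which all but NCOA4, a ferritin receptor of autophagy, act in iron-sulfur cluster assembly. The 7 with BCL11A only were ACO1, FTH1, FTL, SLC25A37, STEAP3, TFR2 and TFRC, known for iron uptake, transport, storage and sensing. This split was noticed after the values were seen. The deposited lists gave 14 of 22 shared, 0 TR4 only and 7 BCL11A only. GLRX5, of cluster assembly, had a shared region with folds of 129, 146 and 43 in clone T and 29.9, 27.1 and 13 in clone B. Ferritin heavy chain FTH1 had a BCL11A-alone region (18.7, 18.7 and 14.3; 6 of 6 HA and 0 of 6 TR4-antibody libraries), and the transferrin receptor gene TFRC a shared one (7.48 and 8.63 in replicates 1 and 2 of clone T, 19.3, 16.3 and 13.6 in clone B). At equal length 3 of 13 heme synthesis genes had TR4 only (CLPX, UROD and UROS) and 3 BCL11A only (ABCB10, SLC25A38 and TMEM14C). Another 3 had a shared region. The deposited lists gave 9 shared, 1 TR4 only (UROS) and 2 BCL11A only (CPOX and TMEM14C). UROD, named after its values were seen, was shared there (11, 13.5 and 9.59 in clone T, 13.5, 19.4 and 5.75 in clone B). It had a peak in 3 of 6 TR4-antibody and 6 of 6 HA libraries. FECH, the last enzyme, had 14.6, 12.5 and 7.98 in clone T and 29.1, 40.4 and 19.4 in clone B.

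At equal length regulators of the fetal globin genes were nearer to balance, and NuRD genes leaned to TR4 on small counts. Of 27 regulators 4 had TR4 only at equal length (EHMT1, EIF2AK1, NFIA and NR2C1), 6 BCL11A only (ATF4, FOXO3, IGF2BP3, KLF1, NFIX and ZNF410) and 4 a shared region. In the deposited lists 14 of the 27 were shared, 1 had TR4 only (SOX6) and 8 BCL11A only. NFIA had a TR4-alone region at its start with folds of 104, 125 and 41.6, where 3 of 6 HA libraries also had a peak. Of 15 NuRD genes 3 had TR4 only (20%: CHD3, MTA1 and MTA2), 1 BCL11A only (6.67%: MBD3) and 4 a shared region. In the deposited lists 0 had TR4 only and 2 BCL11A only. CHD3, its helicase subunit, had a shared region there, with a peak in 6 of 6 HA libraries. Its folds were 79.6, 94 and 22.9 in clone T and 21.8 and 17.4 in replicates 1 and 2 of clone B. The TR4-alone region of MTA1 had a peak in 2 of 6 TR4-antibody and 0 of 3 clone TB MYC libraries. Of 509 ZNF-named genes, 73 had TR4 only at equal length (14.3%), 27 BCL11A only (5.3%) and 48 a shared region. The deposited lists gave 32 with TR4 only (6.29%), 89 with BCL11A only (17.5%) and 184 shared (36.1%). Of all genes 1.9% had TR4 only and 19.5% BCL11A only there. Genes of this naming encode zinc finger proteins and are known to cluster on chromosome 19.

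Genes of other lineages had few shared regions. In the deposited lists 0 of 20 lymphoid and myeloid genes had a shared region, and 1, CD8A, had a TR4-alone region with folds of 7.17 and 4.95 and no peak with the TR4 antibody in 6 libraries. Of 20 neuronal and liver genes 0 had a shared region and 3 had BCL11A only (15%: APOA1, SYP and TAT), near the 19.5% of all genes. One more, the glutamate receptor gene GRIN1, had a TR4-alone region with folds of 35.9, 61.5 and 22.2 and a peak in 5 of 6 TR4-antibody and 0 of 6 HA libraries. Of 392 olfactory receptor genes 2 had a BCL11A region, and of 149 keratin genes 1. Of 20 erythroid identity genes 7 had a shared region (35%) and 9 BCL11A only (45%), beside 25.2 and 19.5% of all genes. At equal length 5 had BCL11A only (25%: GATA1, KLF1, TAL1, TFRC and TRIM58) and 3 TR4 only (15%: AHSP, CA2 and GFI1B). Another 2 had a shared region, and the shares of all genes were 7.27% for BCL11A only and 7.48% for TR4 only.

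**Figure D5:**
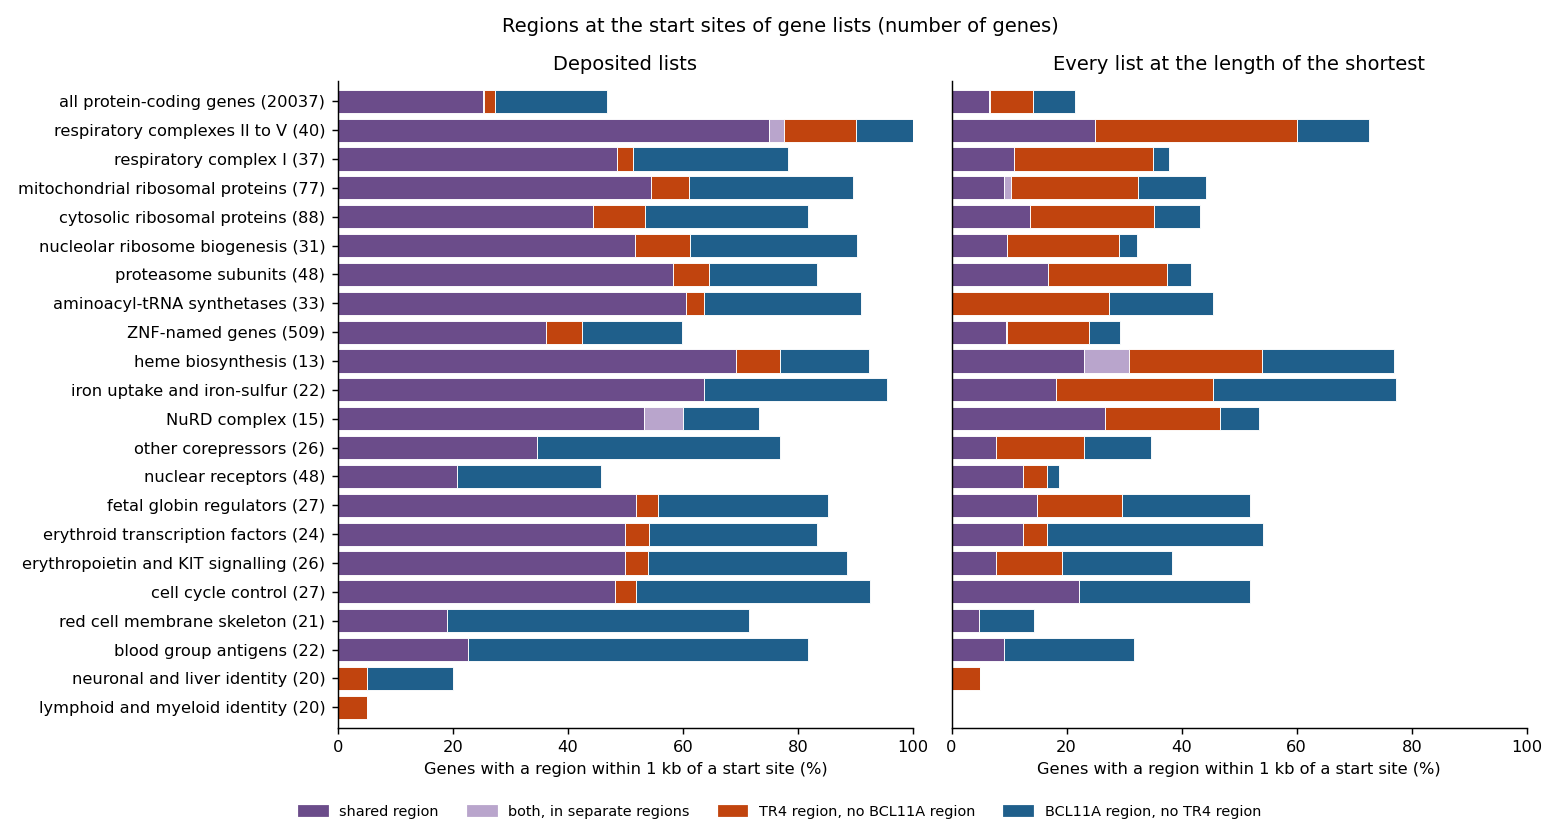
Genes with a region within 1 kb of a start site (%), by gene list, in the deposited lists (left) and with every list held to its 4621 strongest peaks (right); the number of genes stands in brackets. At equal length 35% of the genes of respiratory complexes II to V had a TR4 region without a BCL11A region, against 7.48% of all protein-coding genes, and 37.5% of the erythroid transcription factors had the reverse, against 7.27%.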

How the data were processed

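The authors deposited 1 peak list per CUT&RUN library (21 target and 3 IgG libraries), with no pooling across libraries. For every peak the authors' caller gave a fold enrichment (a linear ratio), a −log10 q-value and a summit offset. The submitters' processing notes name MACS2 2.1.4, Bowtie2, Trimmomatic, SAMtools and Picard with build GRCh38; their roles are not given in the sources used here. Read counts were not analysed here, so depth is unknown, no interval that needs it is given, and list length is the only value near it.

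Merged regions, classes and tests are as the results state. Merging over all libraries joins neighbouring peaks, and a region counts as without a peak whenever the caller's threshold was missed. In counts by gene, a region of one protein may have a peak in 1 of 3 MYC libraries of the other. Start sites came from the RefSeq promoter table (GRCh38.p14): 22175 sites of 15842 of the 20037 protein-coding genes on the primary chromosomes, and for the other 4195 both record ends were used. The tables give no exons, so exon, intron or UTR is not stated. Motifs were searched on both strands of 20671 promoter windows of 300 bases that do not overlap for the same gene. "Equal length" keeps the 4621 strongest peaks of each library by −log10 q. Tests over libraries were exact two-sided permutation tests, and tests by region Fisher's exact tests, with Benjamini-Hochberg adjustment. The functions were tested on simulated data.

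Named were NR2C2, NR2C1, BCL11A and ZBTB7A, the 10 regions of each class with the highest mean fold percentile outside the globin loci, and up to 3 genes per list by the same rank; the text says where a gene was picked otherwise, and members of a list at equal length or of 1 protein only are named as counted. The regions and the 28 gene lists were chosen with earlier results of these data known. Alternatives were peak threshold, list length, libraries needed, IgG regions, merge, overlap, window, replicates and pairing. Python 3.11.15, numpy 2.4.6, pandas 2.3.3, scipy 1.17.1 and matplotlib 3.10.9 were used.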

Additional observations from a re-analysis of the deposited data

How the results depend on the processing

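List length moved most results. With equal lengths 1519 regions were shared, 2143 were of TR4 alone and 2192 of BCL11A alone (37.1 and 36% of each protein's regions shared), and 1227 regions were TR4-preferred, with 934 TR4-alone and 772 BCL11A-alone regions called for their protein. Genes with a shared region then numbered 1305, with TR4 only 1498 and with BCL11A only 1457. At shared regions the difference between antibodies turned to 7.52 points, and the share of promoters with TGACCA differed by −1.42 points (exact permutation test, adjusted p = 0.00298). With 3 of 3 libraries needed there were 2423, 290 and 4013 regions (66.9 and 22.9% shared). At −log10 q of at least 5 the shares were 75.3 and 32.2%, and with summit windows 76.5% of TR4 regions were shared. With every region tested, 0 regions passed in either direction and in either class.

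Leaving out one MYC library at a time, with both others then needed, gave 3174 to 7391 shared, 300 to 1855 TR4-alone and 4168 to 13211 BCL11A-alone regions, with 53.6 to 86.4% of TR4 and 14.6 to 47.8% of BCL11A regions shared, and −16 to 1.53 points between the antibodies at shared regions. Leaving out one TR4-antibody or HA library gave 112 to 337 TR4-preferred and 1568 to 6211 BCL11A-preferred regions, of which 84 to 224 were of TR4 alone and 1245 to 4354 of BCL11A alone. The libraries that move counts by over 1.5 times are MYC replicates 1 and 2 of each clone for the classes, and HA replicate 3 of clone B or TB and TR4 replicate 3 of clone T for the test by region.

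Within clone TB the differences were 31 points for TR4-alone and −45.4 for BCL11A-alone regions, and between clones T and B 44 and −57.9, each with 3 libraries a side, where an exact permutation test cannot go below 0.1 (adjusted p = 0.15). Same-numbered libraries were not shown to be pairs at every number. Their deviations correlated at 0.0356, 0.0321 and 0.111 for MYC in clones T and B (2423 regions). They correlated at 0.11, 0.0225 and 0.14 for the TR4 antibody and HA in clone TB (3124 regions). For the TR4 antibody in T and HA in B the values were 0.0474, 0.00834 and 0.102 (2572 regions). Replicate 3 stood apart, since it correlated with replicates 1 and 2 at −0.123 to −0.0297 over these comparisons. Replicate 1 correlated with replicate 2 at 0.0233 to 0.0647. Whether replicate 3 forms a block was not tested. With a replicate block (exact sign-flip test, which cannot go below 0.25 for 3 pairs or 0.0312 for 6), the difference at shared regions of −11.7 points had an adjusted p of 0.0312, and no other call changed. Without the third replicate of every group, an alternative added after the data were seen like the equal lengths for gene lists, location and motifs, the classes held 7307, 1394 and 10944 regions and the differences were −10.2, 47 and −62.7 points. Depth is unknown, so a peak that is missing from a list may lie under its threshold.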

Other observations

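Genes that do not code for protein had regions of both proteins too, within 250 bases of either end of the record. Of 443 tRNA genes, 51 had a region of both proteins (11.5%), 6 of TR4 only (1.35%) and 79 of BCL11A only (17.8%). Of 154 snRNA genes, which include the spliceosomal RNAs, 35 had both, 6 TR4 only and 19 BCL11A only, a share of 22.7% with both. Of 18303 lncRNA genes 987 (5.39%) had both, and of 1199 snoRNA genes 12 (1%). Many tRNA and snRNA genes are near-identical copies, and the sources used here do not say how reads were assigned among them. These counts come from the deposited lists, where BCL11A had more regions, and were not made at equal length. In those lists 1.9% of protein-coding genes had TR4 only and 19.5% BCL11A only, within 1 kb of a start site. The counts have no test.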
